A study of Mus musculus with 17 samples.

Results

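The genes described here are 41 interferon-stimulated genes, a set that includes 7 guanylate-binding proteins, measured in microvessels from the cerebral cortex of mice. They were chosen by symbol: each of the 41 symbols matched 1 Ensembl gene of the 42687 genes in the count table. All 41 passed the filter on low counts, which left 18753 genes for testing.

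RNA sequencing libraries came from wild-type (WT) mice and from APP/PS1 mice, a transgenic amyloid model of Alzheimer's disease whose genotype the sample labels write as APP. All mice were 10 to 11 months old, and all received a peptide at 10 mg/kg into the peritoneum at intervals of 2 days over 2 weeks. The peptide was gp91-ds-tat, which blocks the superoxide-producing NADPH oxidase NOX2, or the control peptide sgp91-ds-tat, and no group went without an injection. The 17 libraries form 4 groups: WT with control peptide (5 libraries), WT with inhibitor (5), APP/PS1 with control peptide (2) and APP/PS1 with inhibitor (5). In the sample labels the peptides appear as NOX2 and SC, read here as inhibitor and control. The labels give neither the promoter of the transgenes nor whether a library is 1 animal or a pool, so a p-value measures the spread between these libraries, which may be technical. The extraction text mentions surgery and cortices of 1 side, without saying which surgery. The vessels were collected by centrifugation and not sorted, and the labelled cell types are endothelium, pericytes and astrocyte endfeet.

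Interferons are cytokines that bind receptors on the cell surface and signal through JAK kinases to STAT transcription factors. Type I interferon assembles a complex, with STAT2 and IRF9 among its subunits, that binds the interferon-stimulated response element (ISRE), and interferon gamma acts through the gamma-activated site (GAS). The genes switched on encode proteins that sense foreign nucleic acid, block translation or entry of viruses, and attack the membranes around intracellular pathogens. Brain endothelium responds to interferons, and a basal level of these genes is kept up in vessels without infection.

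The promoter stretches below are shown because they carry the 2 elements that define this response, and because members with the element are compared with all promoters. RefSeq gives windows of 250 bases before to 50 bases after the start (GRCm38.p6) for 29 of the 41 genes, and 12 had none in the table used. The ISRE core was searched on both strands as GAAA, any 2 bases and GAAA, which is TTTC, any 2 bases and TTTC on the other strand. The GAS was searched as TTCNNNGAA, which reads the same on both strands. Bases in capitals are the matches, and all stretches run 5′ to 3′ on the gene's strand.
Ifit1 (chr19:34640784-34640833, plus strand, ISRE core): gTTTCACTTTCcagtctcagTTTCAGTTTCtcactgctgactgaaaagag
Ifit3 (chr19:34583387-34583436, plus strand, ISRE core): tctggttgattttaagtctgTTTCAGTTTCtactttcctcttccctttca
Ifit3b (chr19:34607783-34607832, plus strand, ISRE core): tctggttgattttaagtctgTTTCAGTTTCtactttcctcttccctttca
Isg15 (chr4:156200855-156200904, minus strand, ISRE core): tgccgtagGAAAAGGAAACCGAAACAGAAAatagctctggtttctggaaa
Gbp2 (chr3:142620584-142620633, plus strand, ISRE core): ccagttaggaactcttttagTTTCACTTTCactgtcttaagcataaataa
Gbp3 (chr3:142559985-142560034, plus strand, ISRE core): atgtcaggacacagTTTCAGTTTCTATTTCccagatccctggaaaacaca
Gbp5 (chr3:142496749-142496798, plus strand, ISRE core): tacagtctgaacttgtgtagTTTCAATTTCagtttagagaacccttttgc
Gbp7 (chr3:142530263-142530312, plus strand, ISRE core): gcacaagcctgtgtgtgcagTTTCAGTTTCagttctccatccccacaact
Irf8 (chr8:120736185-120736233, plus strand, GAS): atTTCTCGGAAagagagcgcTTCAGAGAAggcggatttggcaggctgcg
Irf1 (chr11:53769904-53769952, plus strand, GAS): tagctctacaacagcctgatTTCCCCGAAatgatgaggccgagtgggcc
The ISRE core occurred in the windows of 18 of 29 members (62.1%) and in 3.99% of the 27025 genes with a window. The GAS occurred in 10 of 29 members (34.5%) and in 9.55% of all genes. The members were chosen as interferon-stimulated genes and some are copies of each other, so these shares are a description and no test. Ifit3 and Ifit3b, neighbouring genes on chromosome 19, have the same 50 bases around their match. Each of the 4 guanylate-binding protein genes with a window, all on chromosome 3, holds the ISRE core, and Gbp5 and Gbp7 hold the GAS as well. Isg15 holds 3 overlapping ISRE cores. Irf8 holds 2 GAS matches and no ISRE core, while Irf7, Irf9, Oasl1, Oasl2, Ifitm1, Ifi44 and Xaf1 hold neither. In Bst2 and Ifitm3 a GAS and an ISRE core overlap. Such a match describes letters only, and binding was not measured.

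**Figure D1:**
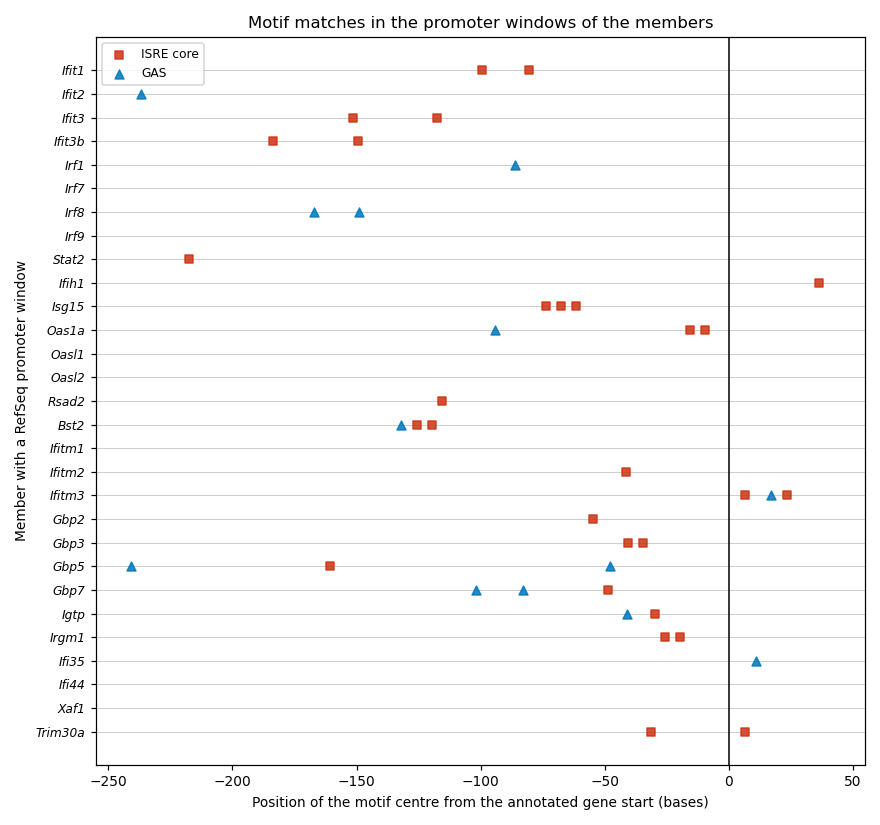
Positions of the ISRE core (squares) and the GAS (triangles) in the RefSeq windows of the 29 members with one, with the centre of each match in bases from the annotated gene start on the x axis and 1 member per line. The ISRE core is present in 18 members and the GAS in 10, and most matches lie before the start.

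Total counts were between 7316503 and 17862965 per library, and levels are given as CPM, counts scaled to the library size after TMM normalization. The endothelial markers Cldn5, Pecam1, Cdh5, Flt1, Ly6c1, Slco1a4 and Tek had at least 1166 counts in every library. Markers of neurons, oligodendrocytes, astrocytes and microglia were present as well, and the 4 choroid plexus markers varied from 25.3 to 7986 summed CPM. The 8 microglia markers summed to 189 to 260 CPM in the WT libraries and 231 to 416 CPM in the APP/PS1 libraries. For genotype over both peptides, 5 of these 8 passed the test and were higher in APP/PS1, as were 7 of 9 markers of plaque-associated microglia. Of 6 astrocyte and 5 tested neutrophil markers, 1 each passed and was higher. The 8 neutrophil markers summed to 9.10 to 27.5 CPM in the WT libraries and 22.1 to 34.2 CPM in the APP/PS1 libraries. None of the 7 endothelial markers passed, which is near the 0.587% of all tested genes that did. In such bulk samples, fewer cells of a type and less RNA per cell cannot be told apart.

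The members were detected at low to moderate levels, from 3 counts of Zbp1 to 1185 counts of Ifitm3 in a library. Per kilobase of exon, the median over libraries was highest for Ifitm3, at 63.3 CPM per kb, followed by Ifitm2 at 21.7, Ifi27 at 15.6, Gbp2 at 10.9 and Stat2 at 9.40. It was lowest for Gbp6, at 0.265 CPM per kb, Mx1, at 0.295, and Zbp1, at 0.447. Ifitm3 and Ifitm2 encode membrane proteins that block virus entry, and Ifitm1 of the same family was lower, at 5.82 CPM per kb.

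Libraries differed in many members at the same time. The level of a library was described as the median, over the 41 members, of the log2 difference from each member's mean over the 17 libraries. In WT with control peptide this was −0.45, −0.69, −0.14, 0.36 and −0.51 in replicates 1 to 5. In WT with inhibitor it was 0.12, 0.15, −0.41, 0.42 and −0.43. The APP/PS1 libraries had 0.12 and 0.42 with control peptide. With inhibitor they had 0.21, 0.64, −0.17, −0.01 and 0.51. Only WT libraries were below −0.4, and the 2 highest levels were in APP/PS1. The highest WT level with each peptide, 0.36 and 0.42, lay inside the APP/PS1 range, so the genotypes overlapped. Replicate 2 of APP/PS1 with inhibitor had the highest level of 19 of the 41 members, against 4.62% of all tested genes. Replicate 2 of WT with control peptide had the lowest level of 15 members, against 8.44% of all tested genes.

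The endothelial marker sums were high in several libraries with a high level, but not in all. The 7 endothelial markers summed to 3651 CPM in replicate 4 of WT with control peptide, 3602 and 3409 CPM in replicates 2 and 5 of APP/PS1 with inhibitor, and 3233 CPM in replicate 2 of APP/PS1 with control peptide. These are the 4 highest sums of the 17 libraries, and the same 4 libraries had 4 of the 5 highest member levels. The other of the 5, replicate 4 of WT with inhibitor, had 2899 CPM, below replicates 1 and 2 of its group (3057 and 3012 CPM). The lowest sum, 1974 CPM, was in replicate 4 of APP/PS1 with inhibitor. Its member level, −0.01, was nevertheless above those of 4 of the 5 WT libraries with control peptide. Microglia markers were high in some of these libraries too, at 416 and 394 CPM in replicates 5 and 2 of APP/PS1 with inhibitor. They summed to 408 CPM in replicate 2 of APP/PS1 with control peptide, but to 217 CPM in replicate 4 of WT with control peptide. The 4 fibroblast markers had their 4 highest sums in the same 4 libraries as the endothelial markers. These were 259 CPM in replicate 4 of WT with control peptide and 245 CPM in replicate 2 of APP/PS1 with control peptide. Replicates 2 and 5 of APP/PS1 with inhibitor had 263 and 254 CPM. The pericyte and smooth muscle sums were not all highest there, with 1234 CPM in replicate 2 of APP/PS1 with control peptide. The part of endothelial or other cell content in the member levels was not tested.

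**Figure D2:**
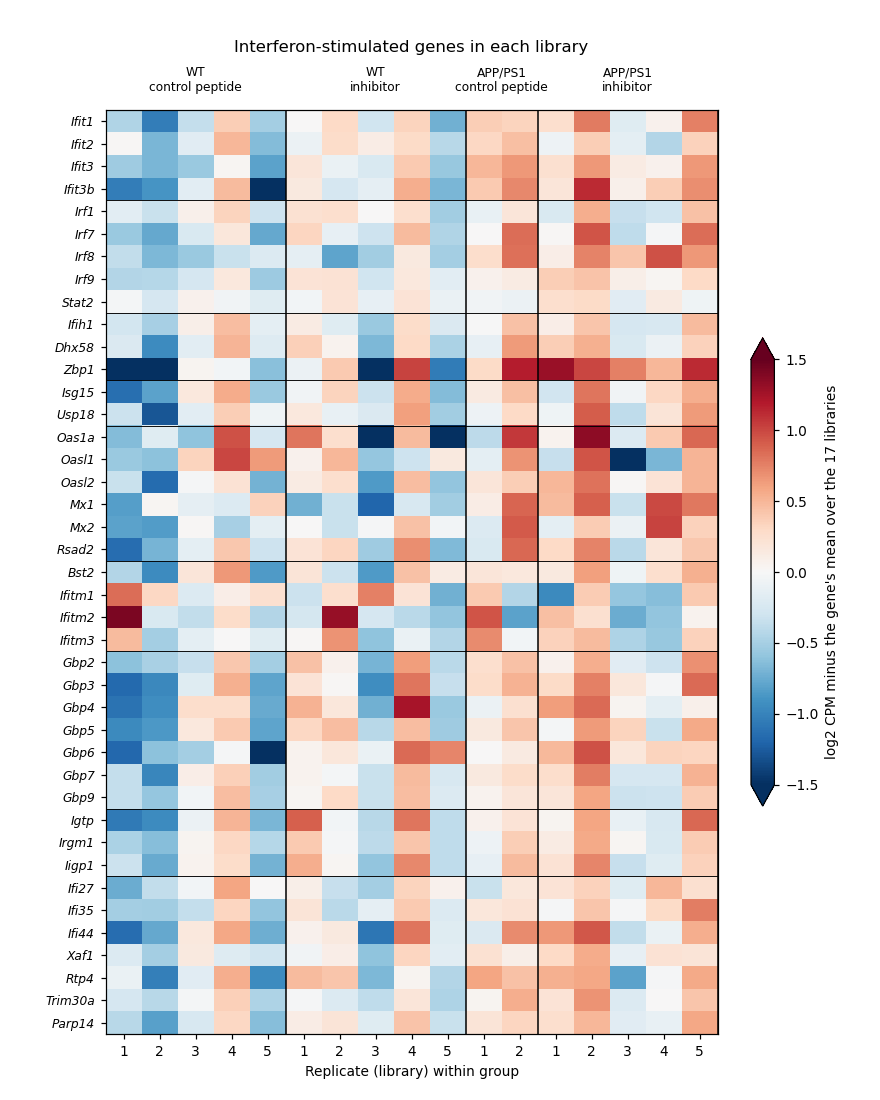
Each cell is the log2 CPM of a member (rows, ordered by role) in a library (columns, grouped by genotype and peptide) minus that member's mean over the 17 libraries, with the colour scale ending at −1.5 and 1.5. Replicates 1, 2 and 5 of WT with control peptide are blue in most rows, replicates 2 and 5 of APP/PS1 with inhibitor are red in most rows, and Ifitm1 and Ifitm2 go their own way.

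**Figure D3:**
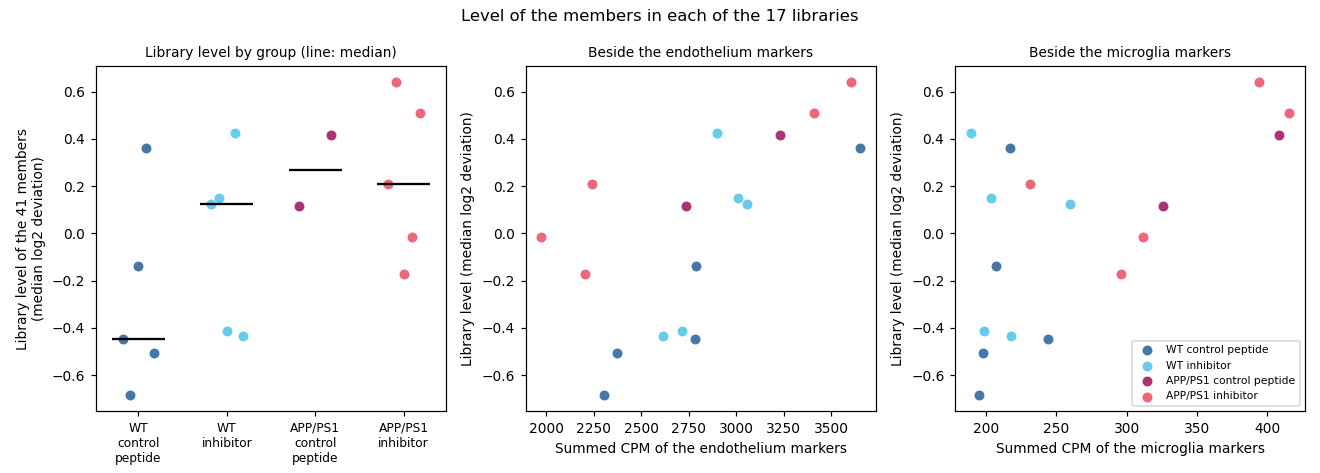
The left panel gives the library level of the 41 members (median log2 deviation) by group with the group's median as a line; the other panels set it beside the summed CPM of the endothelium and microglia markers, 1 point per library. Groups overlap in level, and the libraries with the most endothelial marker CPM are among the highest.

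APP/PS1 microvessels were compared with WT over both peptides to ask which members differ by genotype. Irf8 rose, with a log2 change of 0.96 ± 0.14 (SE), and was the only one of the 41 members to pass an adjusted p of 0.05 in edgeR's quasi-likelihood test (adjusted p = 0.000858). Over all tested genes, 0.587% passed. At an unadjusted p under 0.05 there were 15 members, all higher, or 36.6% of the members against 3.48% of all genes higher. The estimate was above 0 for 39 of 41 members, against 50.7% of all genes, and the median log2 change was 0.32, against 0.00 over all genes. No member had all 7 APP/PS1 libraries above all 10 WT libraries, where 0.267% of all genes did.

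Split by peptide, the genotype difference had the same sign for most members. With control peptide, 0 of 41 members passed in edgeR's test, where 0.0533% of all genes did. DESeq2 called 2 of them, Ifit3 and Irf8, but its share of all genes was not computed. In edgeR, 9 members had an unadjusted p under 0.05, all higher, against 1.82% of all genes higher. The median log2 change was 0.48, and 38 estimates were above 0, against 51.2% of all genes. For Ifit3, Irf8, Zbp1 and Gbp6 both APP/PS1 libraries lay above all 5 WT libraries, a pattern found in 3.6% of all genes. With inhibitor, 1 of 41 members passed, again Irf8, where 0.181% of all genes did. At an unadjusted p under 0.05 there were 5, all higher, against 2.08% of all genes higher, and the median was 0.26 with 38 estimates above 0, against 50.6% of all genes. That median was 0.14 without replicate 2 of APP/PS1 with inhibitor, 0.15 without replicate 3 of WT with inhibitor and 0.40 without replicate 4 of WT with inhibitor.

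The inhibitor was compared with the control peptide within each genotype. In APP/PS1, 0 of 41 members passed, as did 0% of all genes, and 0 had an unadjusted p under 0.05 in edgeR, where 1.8% of all genes did. DESeq2 called 0 as well, and the median log2 change was 0.03, with 24 estimates above 0 against 50.2% of all genes. The sign of this median turned, to −0.13, −0.10 and −0.04, without replicate 1 of APP/PS1 with control peptide or replicates 2 or 5 with inhibitor, and it was 0.19 without replicate 2 with control peptide. In WT, 0 members passed in either tool, as did 0% of all genes in edgeR. There, 3 members had an unadjusted p under 0.05, namely Gbp6, Ifit3 and Irf9, all higher, against 0.629% of all genes higher. The median was 0.24, with 34 of 41 estimates above 0 against 50.6% of all genes. It was 0.14 without replicate 2 of WT with control peptide, 0.44 without replicate 4 of that group and 0.11 without replicate 4 of WT with inhibitor. Over both genotypes, 0 members passed in either tool, as did 0% of all genes in edgeR. The unadjusted p was under 0.05 for 2 of them, Gbp6 and Irf9, both higher, against 1.2% of all genes higher. The median was 0.16, with 33 estimates above 0 against 51.4% of all genes. Leaving out the same 3 libraries gave 0.11, 0.27 and 0.08.

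The interaction, which is the inhibitor effect in APP/PS1 minus that in WT, passed for 0 members in either tool and for 0% of all genes in edgeR. It had an unadjusted p under 0.05 for 1 member, Ifit3, which was below 0, against 0.235% of all genes below 0, and its median was −0.20, with 6 of 41 estimates above 0 against 49.3% of all genes. Over fits without 1 library the median was between −0.39 (without replicate 1 of APP/PS1 with control peptide) and −0.08 (without replicate 2 of that group or replicate 4 of WT with inhibitor). The 7 endothelial markers had a median interaction of −0.21 and the 4 fibroblast markers one of −0.30, with 0 estimates above 0. For the 7 pericyte and smooth muscle markers it was −0.10, again with 0 above 0. Choroid plexus, oligodendrocyte and erythroid markers had medians above 0, at 1.27, 0.03 and 0.00036. The part of cell content in the members' interaction was not tested. The comparison of genotypes with control peptide, the comparison of peptides in WT and the interaction share the WT libraries with control peptide, and their estimates are not independent of each other.

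**Figure D4:**
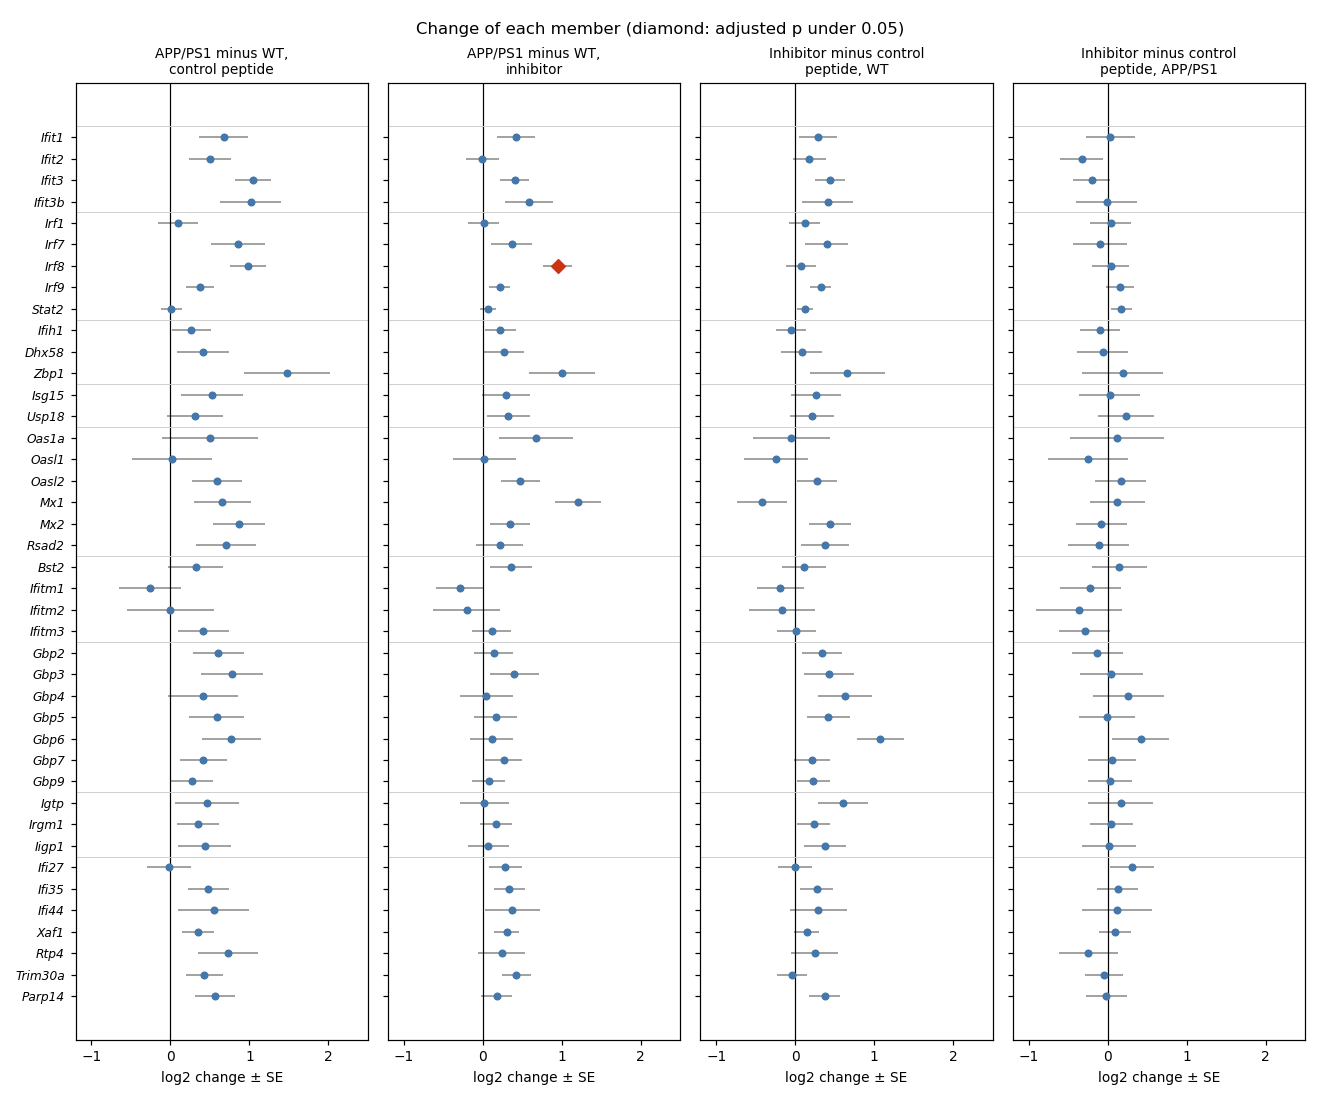
Log2 change (x axis, point) ± SE (line) of each member (rows, ordered by role) for genotype with each peptide and for inhibitor in each genotype, with a diamond where the adjusted p is under 0.05. Irf8 with inhibitor is the only diamond, most genotype estimates lie right of 0, and the estimates for inhibitor in APP/PS1 lie on both sides.

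The IFIT genes encode proteins with tetratricopeptide repeats that bind viral RNA and limit its translation. The 4 members are neighbours on chromosome 19, with Ifit2 at chr19:34550694-34576419, Ifit3 at chr19:34583531-34588731, Ifit3b at chr19:34607970-34613401 and Ifit1 at chr19:34640871-34650009 (mm10, GENCODE vM21). For genotype over both peptides none of the 4 passed, against 0.587% of all genes, and 3 had an unadjusted p under 0.05 and were higher, against 3.48% of all genes. The family's median log2 change was 0.58.

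Ifit3 was measured at 8.97, 8.07, 8.84, 13.2 and 7.43 CPM in WT with control peptide and at 14.8, 12.1, 11.0, 17.02 and 8.78 CPM in WT with inhibitor. In APP/PS1 it was at 18.3 and 20.3 CPM with control peptide and at 15.4, 20.3, 14.1, 13.5 and 20.4 CPM with inhibitor. All 7 APP/PS1 libraries were above all WT libraries with control peptide, and WT with inhibitor spanned the space between them, with replicates 1 and 4 inside the APP/PS1 range. The log2 change with control peptide was 1.05 ± 0.23 (SE), with an adjusted p of 0.141 in edgeR, and with inhibitor 0.41 ± 0.18. In WT the inhibitor estimate was 0.44 ± 0.19, in APP/PS1 −0.20 ± 0.23, and the interaction was −0.64 ± 0.30 (unadjusted p = 0.0438, adjusted p = 1.00 in edgeR). Over both peptides the genotype estimate was 0.65 ± 0.15 with an adjusted p of 0.0648 in edgeR. It passed in 2 of the 3 other analyses, with an adjusted p of 0.00994 in DESeq2 and 0.0281 in edgeR without the low-count filter. It also passed in edgeR, over both peptides, without replicate 4 of WT with control peptide (adjusted p = 0.0389), replicate 4 of WT with inhibitor (0.0210), or replicates 3 (0.0498) or 4 (0.0445) of APP/PS1 with inhibitor. With control peptide it passed in DESeq2 (adjusted p = 0.0164) and, in edgeR, without replicate 4 of WT with control peptide (0.0405).

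Ifit3b, a copy of Ifit3, was at 1.57 to 6.43 CPM in WT with control peptide, 2.87 to 6.76 CPM in WT with inhibitor, 6.07 and 7.65 CPM in APP/PS1 with control peptide and 4.89 to 10.0 CPM in APP/PS1 with inhibitor. Of the 50-base stretches of Ifit3 transcripts, 51.2% also occur in Ifit3b, and 45.0% of those of Ifit3b occur in other genes, so the split of reads between the copies is uncertain. Ifit1 ranged from 7.86 to 27.8 CPM, with a genotype estimate of 0.52 ± 0.19 over both peptides. Ifit2 was at 14.1, 8.70, 12.4, 19.7 and 8.89 CPM in WT with control peptide and at 17.2 and 19.0 CPM in APP/PS1 with control peptide. With inhibitor Ifit2 was at 13.1, 16.9, 15.1, 17.02 and 10.5 CPM in WT and at 13.2, 18.01, 12.6, 10.3 and 17.8 CPM in APP/PS1. Its groups overlapped in every comparison, and its genotype estimate with inhibitor was −0.01 ± 0.21.

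Transcription factors of the response were next. Irf8 encodes interferon regulatory factor 8, which myeloid cells, microglia included, need for their identity. It lies at chr8:120736358-120756694 (mm10, GENCODE vM21). Its level was 7.64, 6.18, 6.71, 7.86 and 8.58 CPM in WT with control peptide and 8.98, 5.71, 6.91, 10.9 and 6.92 CPM in WT with inhibitor. It was 11.9 and 17.5 CPM in APP/PS1 with control peptide and 10.6, 16.6, 13.1, 19.2 and 15.6 CPM in APP/PS1 with inhibitor. A single pair of libraries kept the genotypes from separating: replicate 4 of WT with inhibitor was just above replicate 1 of APP/PS1 with inhibitor. The mean was 7.64 ± 1.54 CPM (SD, n = 10) in WT and 14.9 ± 3.14 CPM (SD, n = 7) in APP/PS1.

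The genotype estimate for Irf8 was 0.98 ± 0.23 with control peptide (adjusted p = 0.201 in edgeR, 0.0456 in DESeq2) and 0.95 ± 0.18 with inhibitor (adjusted p = 0.0401). The last call was lost in 8 of the 17 fits that left out 1 library, namely without replicate 3 of WT with control peptide, replicates 1, 2, 3 or 5 of WT with inhibitor, or replicates 2, 4 or 5 of APP/PS1 with inhibitor. Over those 17 fits the adjusted p was between 0.0136 and 0.169 and the estimate between 0.84 and 1.08. The inhibitor estimates were 0.07 ± 0.19 in WT and 0.04 ± 0.23 in APP/PS1. The microglia markers given above were higher in APP/PS1 too, with a median log2 change of 0.69 over both peptides, and their part in the Irf8 difference was not tested.

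Irf9, the DNA-binding subunit of the complex that binds the ISRE, was at 22.1, 22.2, 25.1, 33.3 and 20.5 CPM in WT with control peptide and at 34.5, 34.8, 24.3, 33.5 and 27.0 CPM in WT with inhibitor. The APP/PS1 libraries had 31.3 and 32.7 CPM with control peptide and 38.6, 40.4, 31.8, 30.6 and 36.8 CPM with inhibitor. Replicate 4 of WT with control peptide stood with the higher groups and the other 4 of its group lay below all APP/PS1 libraries. The genotype estimate over both peptides was 0.27 ± 0.11 (adjusted p = 0.593 in edgeR) and the inhibitor estimate in WT 0.32 ± 0.14 (unadjusted p = 0.0299, adjusted p = 1.00). Rnf31 overlaps 123 exon bases of Irf9 on the same strand.

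Stat2, a partner of Irf9 in that complex, showed the least spread of all members, from 48.4 to 70.7 CPM, a ratio of 1.46. Its libraries were at 56.8, 48.4, 60.6, 55.6 and 51.0 CPM in WT with control peptide and 56.0, 66.6, 53.1, 66.4 and 54.0 CPM in WT with inhibitor. APP/PS1 gave 55.7 and 54.1 CPM with control peptide and 68.8, 70.7, 51.5, 63.2 and 55.3 CPM with inhibitor. The groups overlapped, and the genotype estimate was 0.05 ± 0.08. Irf7, which amplifies type I interferon production, ranged from 7.32 to 24.0 CPM with a genotype estimate of 0.55 and an unadjusted p of 0.0159. Irf1, induced by interferon gamma, ranged from 14.5 to 30.3 CPM with an estimate of 0.04.

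The sensors Ifih1 (MDA5) and Dhx58 (LGP2) bind double-stranded RNA, and Zbp1 binds left-handed nucleic acid and can start cell death. Zbp1 was at 0.347, 0.314, 1.32, 1.25 and 0.837 CPM in WT with control peptide and at 1.22, 1.69, 0.359, 2.60 and 0.622 CPM in WT with inhibitor. In APP/PS1 it was at 1.58 and 2.91 CPM with control peptide and at 3.16, 2.58, 2.17, 1.81 and 2.79 CPM with inhibitor. All 7 APP/PS1 libraries were above the WT libraries with control peptide, but replicates 2 and 4 of WT with inhibitor were within the APP/PS1 range. The genotype estimate was 1.17 ± 0.32 over both peptides, the highest of the 41, with an adjusted p of 0.162 in edgeR. DESeq2 called it. These levels rest on 3 to 50 counts per library.

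Ifih1 was at 25.5, 22.0, 32.9, 42.8 and 27.9 CPM in WT with control peptide, 33.8, 27.2, 21.1, 37.4 and 26.6 CPM in WT with inhibitor, 30.9 and 42.0 CPM in APP/PS1 with control peptide and 33.1, 41.3, 25.9, 26.3 and 43.1 CPM in APP/PS1 with inhibitor. The groups overlapped, and the genotype estimate was 0.24 ± 0.15. Dhx58 ranged from 2.30 to 6.90 CPM, with an estimate of 0.32.

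Isg15 encodes a ubiquitin-like protein that is attached to other proteins, and Usp18 removes it and restrains receptor signalling. Isg15 was at 1.33, 1.68, 3.25, 4.29 and 1.99 CPM in WT with control peptide and at 2.81, 3.70, 2.33, 4.29 and 1.86 CPM in WT with inhibitor. APP/PS1 libraries gave 3.21 and 3.99 CPM with control peptide and 2.40, 5.09, 2.82, 3.63 and 4.26 CPM with inhibitor. The groups overlapped throughout and the genotype estimate was 0.38 ± 0.23. Usp18 ranged from 2.62 to 11.96 CPM, with an estimate of 0.32.

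The next group holds antiviral effectors. The oligoadenylate synthetases and their relatives (Oas1a, Oasl1, Oasl2) lead to the decay of viral RNA or bind it, the Mx GTPases trap viral nucleocapsids, and Rsad2 (viperin) makes a chain-terminating nucleotide. All 6 had genotype estimates above 0 over both peptides, 0 passed in edgeR, and 3, Mx1, Mx2 and Oasl2, had an unadjusted p under 0.05, against 3.48% of all genes higher. DESeq2 called Mx1.

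Mx1 was at 0.694, 1.26, 1.12, 1.07 and 1.57 CPM in WT with control peptide and at 0.748, 0.973, 0.539, 1.04 and 0.855 CPM in WT with inhibitor. The 7 APP/PS1 libraries had 1.33 and 2.25 CPM with control peptide and 1.71, 2.29, 0.977, 2.45 and 2.13 CPM with inhibitor. Replicate 3 of APP/PS1 with inhibitor lay among the WT libraries, and the other APP/PS1 libraries were above all WT libraries except replicate 5 with control peptide. The estimate was 0.99 ± 0.23 over both peptides (adjusted p = 0.0570 in edgeR), 0.66 ± 0.36 with control peptide and 1.21 ± 0.29 with inhibitor, on 6 to 31 counts per library. Over both peptides it passed in DESeq2 (adjusted p = 0.0174) and in edgeR without replicate 5 of WT with control peptide (0.0382), replicate 1 of APP/PS1 with control peptide (0.0320) or replicate 3 of APP/PS1 with inhibitor (0.0228). Mx1 was among 7 members whose inhibitor estimate in WT was below 0, at −0.42 ± 0.31.

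Oasl2 was at 16.6, 9.43, 20.7, 24.4 and 12.9 CPM in WT with control peptide and at 22.9, 25.0, 11.7, 29.0 and 13.9 CPM in WT with inhibitor. Values in APP/PS1 were 23.7 and 27.0 CPM with control peptide and 29.5, 36.8, 21.3, 24.1 and 29.8 CPM with inhibitor. The APP/PS1 libraries filled the upper part of the range, which the higher WT libraries reached, and the estimate was 0.52 ± 0.19 (adjusted p = 0.536 in edgeR). Mx2 ranged from 2.20 to 7.89 CPM (estimate 0.54), Rsad2 from 5.21 to 21.0 CPM (0.40) and Oasl1 from 0.543 to 3.22 CPM (0.02). Oas1a varied most of all members, from 0.539 to 6.64 CPM, a ratio of 12.3, which rests on 6 to 90 counts per library. Of its 50-base stretches, 57.6% are shared with other genes, chiefly Oas1g.

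Bst2 (tetherin) holds budding virus at the cell surface, and the Ifitm proteins stiffen membranes against viral fusion. This group differed from the other roles: its median genotype estimate over both peptides was 0.05, and Ifitm1 (−0.28 ± 0.23) and Ifitm2 (−0.13 ± 0.33) were the only members below 0. The difference between roles was not tested. Ifitm3 was at 61.0, 30.8, 39.8, 44.2 and 38.9 CPM in WT with control peptide and at 44.6, 70.0, 29.0, 40.9 and 32.6 CPM in WT with inhibitor. In APP/PS1 it was at 71.9 and 42.9 CPM with control peptide and at 56.0, 61.0, 31.9, 29.7 and 55.8 CPM with inhibitor. High libraries occurred in all 4 groups, and the estimate was 0.22 ± 0.19.

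Ifitm2 was named after its values were seen. It was at 44.8 CPM in replicate 1 and 12.4 to 20.5 CPM in the other libraries of WT with control peptide, and at 41.7 CPM in replicate 2 and 11.2 to 14.2 CPM in the other libraries of WT with inhibitor. In the APP/PS1 mice the values were 32.5 and 9.65 CPM with control peptide and 10.1 to 23.1 CPM with inhibitor. In each group the highest value was in the library with the largest total count, and the part of depth in this was not tested. Of its 50-base stretches, 48.5% occur in other genes, among them the overlapping Gm45717. Ifitm1 ranged from 2.84 to 9.83 CPM, and Bst2 from 2.93 to 8.84 CPM with an estimate of 0.34.

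**Figure D5:**
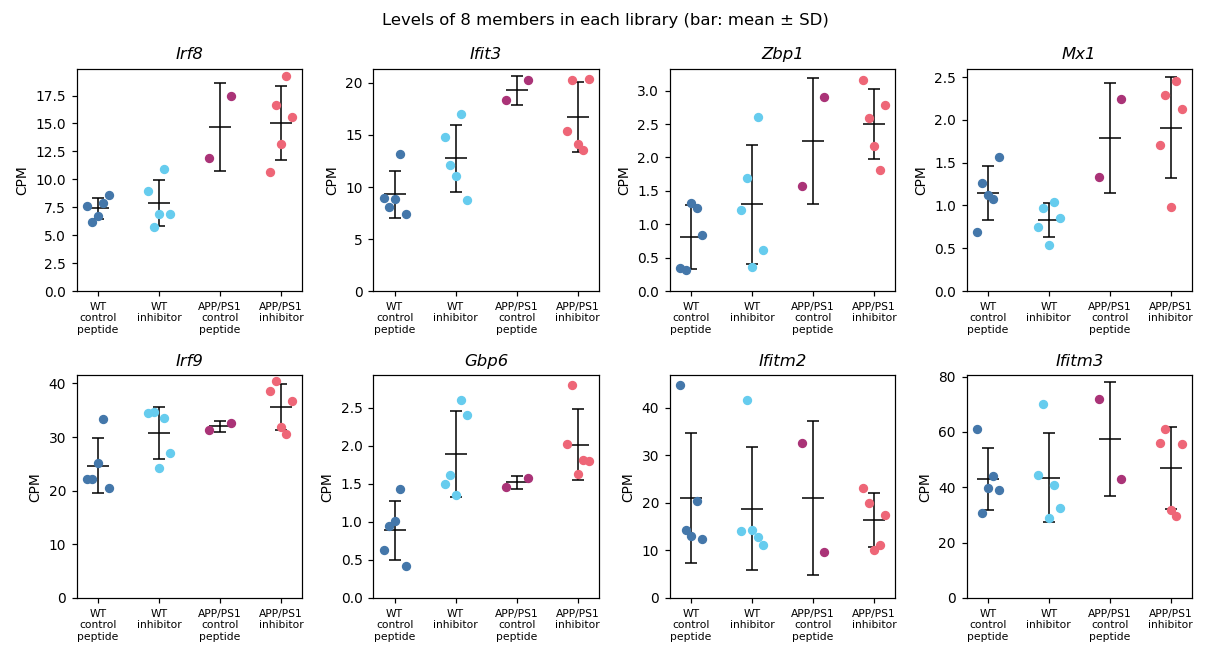
CPM (y axis, from 0) of 8 members in each library by group, with the mean and SD as bars. Irf8 is 5.71 to 10.9 CPM in WT and 10.6 to 19.2 CPM in APP/PS1, while Ifitm2 has 1 WT library far above the others with each peptide.

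The guanylate-binding proteins are large GTPases, strongly induced by interferon gamma, that coat and break the vacuoles of intracellular microbes. Gbp2, Gbp3, Gbp5 and Gbp7 lie together on chromosome 3 between 142493978 and 142638008, and Gbp4, Gbp6 and Gbp9 on chromosome 5 between 105077630 and 105293698 (mm10, GENCODE vM21). For genotype over both peptides 0 of 7 passed, against 0.587% of all genes, all 7 estimates were above 0, against 50.7%, and the median was 0.32, which was 0.59 with control peptide and 0.14 with inhibitor. For inhibitor in WT 0 of 7 passed, as did 0% of all genes, all 7 estimates were above 0, against 50.6% of all genes, and the median was 0.42. In APP/PS1 the median inhibitor estimate was 0.05. The interaction was below 0 for all 7, against 9517 of the 18753 genes tested, and none of the 7 passed.

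Gbp6 was at 0.636, 0.943, 1.02, 1.43 and 0.418 CPM in WT with control peptide and at 1.496, 1.62, 1.35, 2.60 and 2.41 CPM in WT with inhibitor. The APP/PS1 values were 1.46 and 1.58 CPM with control peptide and 2.02, 2.80, 1.63, 1.81 and 1.80 CPM with inhibitor. WT with control peptide was lowest, and its replicate 4 overlapped only replicate 3 of WT with inhibitor. In APP/PS1 all 5 libraries with inhibitor lay above both with control peptide, as in 2.88% of all genes. The inhibitor estimate was 1.08 ± 0.30 in WT (unadjusted p = 0.00193, adjusted p = 1.00 in edgeR), 0.42 ± 0.36 in APP/PS1 and 0.80 ± 0.23 over both genotypes. It rests on 4 to 38 counts per library, and 70.7% of the 50-base stretches of Gbp6 occur in other genes, chiefly Gm43302, whose exons overlap it by 1726 bases on the same strand, and Gbp10.

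Gbp2 was at 17.2, 18.9, 20.7, 34.9 and 18.5 CPM in WT with control peptide and at 35.7, 27.5, 16.2, 40.8 and 19.8 CPM in WT with inhibitor. In APP/PS1 it was at 31.4 and 35.7 CPM with control peptide and at 27.6, 38.5, 23.3, 21.2 and 42.2 CPM with inhibitor. Except for replicate 4, WT with control peptide lay below all APP/PS1 libraries, and the other 3 groups overlapped. The genotype estimate was 0.60 ± 0.32 with control peptide and 0.14 ± 0.25 with inhibitor.

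Gbp4 was at 12.4, 13.9, 31.9, 32.1 and 15.8 CPM in WT with control peptide and at 38.3, 30.02, 16.2, 62.8 and 18.1 CPM in WT with inhibitor. Among APP/PS1 libraries the levels were 25.1 and 31.4 CPM with control peptide and 41.1, 48.0, 27.5, 24.1 and 28.0 CPM with inhibitor. Both WT groups held high and low libraries, and the genotype estimate was 0.18 ± 0.26. The ranges of the others were 8.39 to 33.9 CPM for Gbp3, 13.7 to 41.1 CPM for Gbp5, 14.4 to 48.2 CPM for Gbp7 and 28.0 to 62.9 CPM for Gbp9. Gbp3 had the highest genotype estimate of the family, 0.54 (unadjusted p = 0.0335 in edgeR).

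The immunity-related GTPases Igtp, Irgm1 and Iigp1 act on the same vacuoles as the guanylate-binding proteins. Igtp was at 6.07, 6.60, 11.9, 18.04 and 7.84 CPM in WT with control peptide and at 23.7, 12.3, 9.52, 22.1 and 9.71 CPM in WT with inhibitor. APP/PS1 mice gave 13.2 and 14.6 CPM with control peptide and 13.01, 19.0, 11.7, 10.7 and 22.9 CPM with inhibitor. The groups overlapped, with the highest value in WT with inhibitor, and the genotype estimate was 0.18 ± 0.24. Irgm1 ranged from 13.3 to 30.7 CPM and Iigp1 from 8.90 to 25.0 CPM. The median genotype estimate of the 3 was 0.20 over both peptides.

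The other members have varied or less defined roles. Ifi27, a mitochondrial and nuclear-envelope protein, was at 13.1, 16.9, 21.2, 32.9 and 22.0 CPM in WT with control peptide and at 23.2, 17.2, 15.3, 27.5 and 22.8 CPM in WT with inhibitor. Levels in APP/PS1 were 17.3 and 24.5 CPM with control peptide and 25.2, 27.8, 19.2, 30.9 and 25.7 CPM with inhibitor. The highest value was in WT, and the genotype estimate was 0.18 ± 0.17. Trim30a, a tripartite-motif protein, ranged from 11.7 to 25.8 CPM with a genotype estimate of 0.43 and an unadjusted p of 0.00691.

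Xaf1, which binds an inhibitor of apoptosis, ranged from 11.6 to 25.9 CPM (estimate 0.32) and Ifi35 from 4.60 to 11.8 CPM (0.39). The ADP-ribosyltransferase family member Parp14 ranged from 23.0 to 60.6 CPM (0.32). These 3 and Trim30a had an unadjusted p under 0.05, against 3.48% of all genes higher, and all 7 members of the group had estimates above 0, against 50.7%. Ifi44 ranged from 2.60 to 10.9 CPM (0.44) and Rtp4 from 4.71 to 14.5 CPM (0.42).

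The wider pathway was read from lists of ligands, receptors, inducers and further target genes. Of 20 interferon genes none reached the filter: the highest had 2 counts in a library, Ifnb1 had 0 counts in all 17 libraries, and Ifng had 1 count in each of 2 APP/PS1 libraries with inhibitor. A count of 0 allows up to 0.174 to 0.390 CPM at these depths (3 counts of a library's TMM-scaled size after the filter), and each of these genes was under that floor in every library. These limits cover counting error only.

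The receptor genes were detected in every group, and 0 passed for genotype. Ifnar1, a subunit of the type I receptor, averaged 138.6 ± 25.0 CPM (SD, n = 5) in WT mice given control peptide and 142 ± 20.4 CPM (SD, n = 2) in the APP/PS1 mice given it. The genotype estimates over both peptides were 0.05 ± 0.11 for Ifnar1, −0.02 ± 0.11 for Ifnar2, 0.05 ± 0.11 for Ifngr1 and 0.06 ± 0.09 for Ifngr2. Of 15 receptor and signalling genes 0 passed in edgeR, against 0.587% of all genes, with a median of 0.05. Of 14 tested genes that induce interferon 0 passed, with a median of 0.25, and 6 had an unadjusted p under 0.05, against 6.38% of all genes in either direction.

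Among 75 further interferon-stimulated genes that were tested, 2 rose with genotype over both peptides, against the 0.587% of all genes given above. They were Slfn8, a Schlafen family gene, at 0.78 ± 0.16 (adjusted p = 0.0193 in edgeR), and Ifi213, a DNA-binding PYHIN family gene, at 1.40 ± 0.31 (adjusted p = 0.0361). Of the 75 estimates 71 were above 0, against 50.7% of all genes, with a median of 0.27. For inhibitor in WT 67 of 75 were above 0, against 50.6% of all genes, with a median of 0.17, and 2 had an unadjusted p under 0.05, against 1.34% of all genes. In APP/PS1 46 of 75 were above 0, against 50.2%, with a median of 0.06, and 0 had an unadjusted p under 0.05, against 1.8%. None of the 75 passed in either comparison in edgeR.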

How the data were processed

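RNA of cortical microvessels was sequenced in 17 libraries. Whole-number read counts for each Ensembl gene are what the authors deposited, and per the submitters' processing notes cutadapt, STAR, HTSeq and DESeq2 were used with builds mm10 and GRCh37, whose roles, versions and settings, strand included, are not given in the sources used here. Reads shared by near-identical or overlapping genes are therefore uncertain. A further 20 columns of the table matched no sample and were not used. Symbols and loci came from GENCODE vM21.

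Genes were kept with edgeR 4.0.16's filterByExpr (18753 genes), scaled by TMM and tested by quasi-likelihood F tests in R 4.3.3, two-sided, with Benjamini-Hochberg adjustment over all 18753 genes and a threshold of 0.05. All libraries entered each fit, either with 1 mean per group or with genotype and peptide as additive terms. The SE came from the estimate and its F statistic. The procedure was tested on simulated data. CPM uses TMM-scaled library sizes, and totals per library were 7316503 to 17862965, with a median of 11342154. Of 136 pairs of libraries, 0 were identical, and the pairs within groups differed by more than sampling noise.

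The members and lists were chosen with earlier results of these data known. A member's value is given in every library when it passed in a comparison, was among the 3 smallest p-values of a comparison or was the highest per length in its role group. Cell type markers are counted by list, and only the 7 endothelial markers are named. Values of genes of the pathway lists are given by name only when they passed, besides receptor and ligand genes of the pathway. 1 further gene of that list is not reported here. Alternatives were DESeq2 1.42.0, its size factors in edgeR, no filter, and leaving out each library.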

Additional observations from a re-analysis of the deposited data

Results flagged for a closer look

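A library stood far from the other 4 of its group, with a gap to the nearest of them over 0.71 of the group's range (Dixon's 95% limit), in 6 of 123 sets of 5 libraries (41 genes in 3 groups), where chance gives 6.15 at 1 in 20. Replicate 4 of WT with control peptide accounted for 4 of them. There Ifit3 was at 13.22 CPM, against 7.43 to 8.97 CPM in the other libraries of the group, and Oas1a at 5.091 CPM, against 1.68 to 2.31 CPM. Gbp2 was at 34.92 CPM in the same library, against 17.2 to 20.7 CPM, and Ifi35 at 8.664 CPM, against 4.60 to 5.39 CPM. Ifitm2 was at 44.77 CPM in replicate 1 of WT with control peptide, against 12.4 to 20.5 CPM, and at 41.69 CPM in replicate 2 of WT with inhibitor, against 11.2 to 14.2 CPM.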

How the results depend on the processing

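Each result on gene levels was recomputed under 20 other settings, 17 of which left out 1 library. Of 420 recomputed values for 21 named pairs of gene and comparison, 0 reversed, 399 stayed on their side of the threshold, 8 lost the call and 13 gained it. The pairs were picked by the smallest p-values of each comparison, and most were not called in the main fit. Fits without 1 library also share most of their data, so these counts describe the settings and are no test of robustness. For genotype over both peptides, DESeq2 called 4 members (Ifit3, Irf8, Mx1, Zbp1), edgeR without the filter 2 (Ifit3, Irf8), and fits without 1 library 1 to 3, with Irf8 among them in each. The share of all genes called under these other settings was not computed, so their member counts cannot be set against a background. More than 1 was called without replicates 4 or 5 of WT with control peptide, replicate 4 of WT with inhibitor, replicate 1 of APP/PS1 with control peptide, or replicates 3 or 4 of APP/PS1 with inhibitor. For genotype with control peptide DESeq2 called 2 members (Ifit3, Irf8), and fits without 1 library 0 to 1, the 1 being Ifit3 without replicate 4 of WT with control peptide (adjusted p = 0.0405 in edgeR). For genotype with inhibitor, fits without 1 library called 0 to 1, with 0 in the 8 fits named beside Irf8. Comparisons of the inhibitor and the interaction gave 0 members in every setting. Over fits without 1 library, the members' median log2 change was 0.27 to 0.41 for genotype over both peptides, 0.36 to 0.69 with control peptide and 0.14 to 0.40 with inhibitor. For the inhibitor it was −0.13 to 0.19 in APP/PS1, 0.11 to 0.44 in WT and 0.08 to 0.27 over both, and for the interaction −0.39 to −0.08. The share of members whose window holds the ISRE core was 27.6% on the gene strand alone, against 2.06% of all genes with a window. No paired analysis was possible because the labels give no replicate numbers that groups share. Limits: APP/PS1 with control peptide has 2 libraries, and Zbp1, Mx1, Oasl1 and Gbp6 rest on at most 50 counts per library. Without strand settings overlapping genes cannot be told apart.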
